A study of Homo sapiens with 8 samples.

Results

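Phase II conjugation enzymes join a small polar group to a drug, hormone or pollutant, which makes it easier to excrete. The set described here holds 36 genes, chosen as a list of names: the UDP-glucuronosyltransferases and UGDH, the sulfotransferases and the PAPSS enzymes, the soluble and the membrane-bound glutathione transferases, the methyltransferase TPMT, and the N-acetyltransferases. All 36 genes had a row among the 60230 rows of the count table, and 26 of them had enough reads for testing, out of 13404 tested genes. The list was drawn up by gene name, with earlier results of these data known.

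UDP-glucuronosyltransferases (UGTs) transfer glucuronic acid from UDP-glucuronate, which UGDH makes from UDP-glucose. Sulfotransferases (SULTs) transfer sulfate from PAPS, the active sulfate that PAPSS1 and PAPSS2 make. Glutathione transferases (GSTs) add the tripeptide glutathione to electrophiles, and the liver is the main organ for all of these reactions. Phenols are a typical substrate class of UGTs and SULTs, but whether the compounds used here are conjugated by them was not measured. Many of the genes are known targets of the transcription factor NRF2 (NFE2L2), of the aryl hydrocarbon receptor (AHR), or of the nuclear receptors PXR and CAR.

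RNA was sequenced from HepG2 cells, an established human hepatocellular carcinoma line, in a derivative that overexpresses the drug-metabolizing enzyme CYP3A4 and was kept in blasticidin. The 8 samples formed 4 groups of 2: control cells that received 0.2% DMSO, and cells that received compound 4, compound 5 or compound 6 for 24 h. The compounds are phenolic antioxidants used in plastics, and each was given at its own IC50, so the concentrations differed between compounds. Compounds 4 and 6 (metylcresol and cyclohexil in the labels) are bisphenols in which a methylene bridge joins methylphenol rings that carry, beside each hydroxyl, a tert-butyl group in compound 4 and a cyclohexyl group in compound 6. Compound 5 (tetrabut) joins rings with tert-butyl groups on both substituted positions through an ethylidene bridge. Replicates 1 and 2 of each group carry the words day 1 and day 2 in the labels, although a single exposure time was stated. The labels mark replicate 1 of compounds 4 and 5 as merged, without saying from what. All groups carried the CYP3A4 construct, so the effect of that construct cannot be told apart from the cell line.

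The libraries held between 9472261 and 13308975 counts on genes, and a total of 3 counts, taken as the smallest amount that could be seen, corresponded to between 0.234 and 0.313 CPM (a gene's counts scaled to a common library size). These limits cover counting error only. CPM values below were scaled by the trimmed mean of M values (TMM), and ± gives the standard error (SE) of a log2 fold change. All 9 hepatocyte markers on the list were expressed, at a summed level between 30902 and 41353 CPM. Of the other cell types, none of the 4 endothelial markers passed the filter, and 3 of the 5 immune markers were at 0 in every sample, while LYZ carried the immune sum of between 1855 and 2993 CPM. The fibroblast and stellate list summed to between 10.7 and 22.1 CPM, and the cholangiocyte list to between 219 and 302 CPM. Nothing in the labels says that replicates came from separate cultures, so p-values measure the spread between these samples only.

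The UGT1A genes are read from a single locus in which each gene has its own first exon and all share the rest, so the junction between exon 1 and exon 2 is printed for the 3 UGT1A genes of the list. Sequences and coordinates are from GENCODE 29 (GRCh38), plus strand, lower case for the last 30 bases of exon 1 and capitals for the first 30 bases of exon 2. The exon 1 parts lie at chr2:233761122-233761151 (UGT1A1), chr2:233693836-233693865 (UGT1A6) and chr2:233672760-233672789 (UGT1A9), and the exon 2 part of all of them at chr2:233767034-233767063.
UGT1A1: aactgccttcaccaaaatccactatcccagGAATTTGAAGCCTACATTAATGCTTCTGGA
UGT1A6: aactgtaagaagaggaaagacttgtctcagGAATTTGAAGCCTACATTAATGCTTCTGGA
UGT1A9: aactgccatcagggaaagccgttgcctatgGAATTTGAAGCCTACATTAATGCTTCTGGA
The lower-case part differs from gene to gene, and the capitals are the same in each line. Coding exons 2 to 5, with 132, 88, 220 and 295 coding bases, are shared by all 9 annotated UGT1A genes, whereas coding exon 1, with 864, 861 and 855 bases in UGT1A1, UGT1A6 and UGT1A9, belongs to a single gene each. A read that lies inside the shared exons therefore carries no base that assigns it to a gene, and the software that made the counts had to divide such reads by estimation. Of the distinct stretches of 31 bases in the annotated transcripts, 51.3% of those of UGT1A1, 42.6% of UGT1A6 and 75.9% of UGT1A9 also occurred in another gene. For this reason the 9 UGT1A genes were also summed and tested as 1 row.

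Shared sequence reached beyond the UGT1A locus. SULT1A3 shared 84.3% of its 31-base stretches with other genes, 75.8% with its copy SULT1A4, and the coding sequences of these genes differed at 0 of 885 bases. SULT1A1 and SULT1A2 differed at 28 of 885 coding bases and GSTA1 and GSTA2 at 22 of 666. UGT2B10 and UGT2B11 shared 52.5% and 56.2%, GSTM4 22.9%, UGT2B4 13.3%, and GSTA4 0.4%. Values of genes with a high share are uncertain in the split between copies, so sums are given beside them where their result depends on the split. The plot of shared sequence shows that the microsomal transferases, GSTA4, GSTZ1 and UGDH had little of it.

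**Figure D1:**
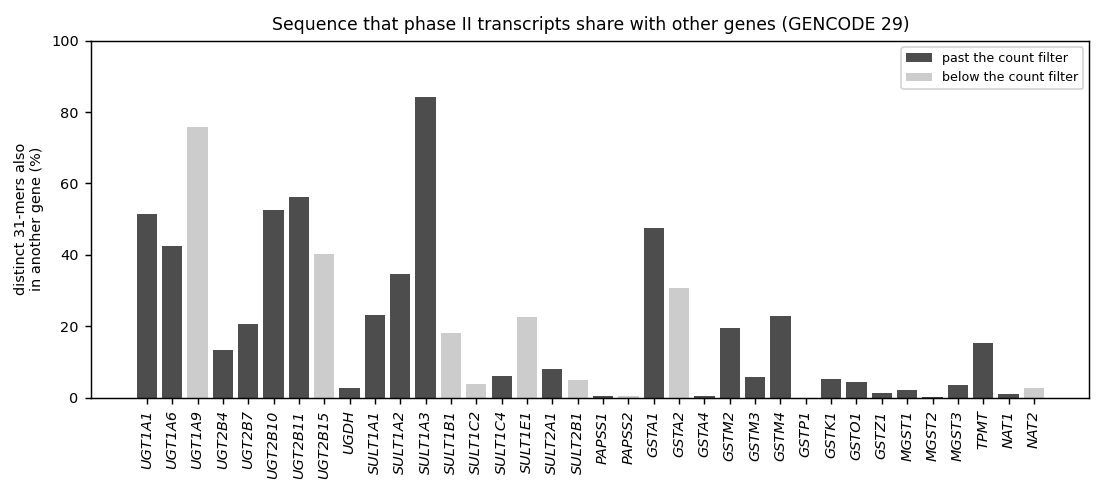
Share of the distinct 31-base stretches of each gene's transcripts that also occur in another gene (%), for all 36 genes in order of family, with dark bars for genes past the count filter and light bars for genes below it. SULT1A3 stands highest with 84.3%, and GSTA4 is at 0.4%.

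In DMSO the set was led by few genes. Per kilobase of the principal transcript, UGDH stood at 184 and 198 CPM per kb in the DMSO samples, followed by the microsomal transferase MGST1 (161 and 201), the omega class GSTO1 (138 and 173), SULT1A3 (107 and 108) and SULT1A1 (94.0 and 103). The replicates of UGDH and MGST1 overlapped, as did those of MGST1 and GSTO1, so the order of these neighbours is not resolved. These 5 genes held between 69.4% and 75.3% of the summed per-length level of the set in every sample. MGST2 (60.8 and 64.9 CPM per kb) and GSTK1 (48.3 and 53.4) came next and did not overlap with each other. The UGTs were far lower, with UGT2B7 at 8.19 and 10.6, UGT2B10 at 5.32 and 6.78, UGT2B4 at 5.43 and 5.95 and UGT1A1 at 0.38 and 1.28 CPM per kb. UGT2B10 and UGT2B4 overlapped in the DMSO samples.

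The other 10 genes were at or near the detection limit and were not tested. GSTP1, the pi class transferase, had 0 counts in all 8 samples, which allows a level of up to 0.313 CPM in the shallowest library. SULT1E1, UGT2B15 and NAT2 had totals of 1, 2 and 3 counts over the 8 samples. SULT1B1 and SULT2B1 had totals of 11 and 12 counts, UGT1A9 of 14, PAPSS2 of 20 and SULT1C2 of 30. GSTA2 had a total of 46 counts, between 2 and 12 in a sample. They include the estrogen sulfotransferase SULT1E1 and the acetyltransferase NAT2, both of which the normal liver expresses.

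In the fit on all 8 samples, compound 5 was accompanied by most of the differences from DMSO in this set. Without compound 5 replicate 1 this ranking did not hold. With compound 5, 11 of the 26 tested genes passed an edgeR adjusted p of 0.05, 2 higher and 9 lower, against a background of 28.1% of all tested genes (13.9% higher and 14.2% lower). With compound 4, 4 of 26 passed, 3 higher and 1 lower, against 11.9% of all tested genes (6.5% higher and 5.42% lower). By DESeq2, MGST2 was higher and GSTM4 and SULT1A3 were lower with compound 4, beside 10.9% of all genes it tested. With compound 6, 0 of 26 passed by edgeR and 0 by DESeq2, against 4.4% of all tested genes (2.8% higher and 1.6% lower), while 6 had an unadjusted edgeR p under 0.05. With all 8 samples the share with compound 4 was close to its background. With compound 5 the share of lower genes was above its background and that of higher genes below it. Without DMSO replicate 1 or compound 5 replicate 1 the share called with compound 5 was not above that of all tested genes. Without compound 5 replicate 1 this was also so for lower genes alone. Leaving out 1 library changed these counts: for compound 5 the count was 3 and 5 without DMSO replicate 1 and 2, and 2 and 5 without compound 5 replicate 1 and 2, and for compound 4 it was 1 and 0 without DMSO replicate 1 and 2. The shares of all genes moved as well: with compound 6 the 4.4% was 0.671% and 0.00746% (1 gene) without DMSO replicate 1 and 2, 0.366% without compound 6 replicate 2, and at most 8.18% without any other library. With compound 5 the 28.1% lay between 12.5% and 33.7% and with compound 4 the 11.9% lay between 2.5% and 12.7% when 1 library was left out. The groups did not overlap for 13 of the 26 genes with compound 4, 18 with compound 5 and 16 with compound 6, against 54.6%, 70.1% and 52.9% of all tested genes. DESeq2 called 5 genes with compound 5, UGT2B4 and UGDH higher and SULT1A1, GSTA4 and GSTM4 lower. It called 22.5% of all genes it tested (1743 higher and 1201 lower of 13066), so by DESeq2 the set lay near its background. An edgeR adjusted p under 0.01 left 4, a setting for which the share of all genes was not counted. Under library-size scaling the median of all genes moved by -0.105 (log2) for compound 5, and the share of higher genes among all calls was 33.3% instead of 49.3%, with 36.6% under upper-quartile scaling. In bulk RNA, fewer cells of a type and less RNA per cell cannot be told apart.

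By family, 6 of the 8 tested soluble GSTs were lower with compound 5 and none was higher, where 14.2% of all tested genes were lower. The median log2 fold change of these 8 was -0.79, beside -0.03 for all tested genes. GSTA1, among these 6 and the 11 above, passed the count filter only through the DMSO samples. The count of 6 was 2 by DESeq2 (GSTA4 and GSTM4), 2 and 3 without DMSO replicate 1 and 2, and 1 and 3 without compound 5 replicate 1 and 2, with GSTA4 called in each of these fits. The 7 tested glucuronidation genes had 2 higher and 0 lower, with a median of 0.23. Among the 6 tested sulfation genes, 1 was lower (median -0.21), among the 3 microsomal transferases 1 was lower (median -0.02), and of TPMT and NAT1 the first was lower. With compound 4 the medians were 0.12 for glucuronidation, 0.07 for sulfation and -0.33 for the soluble GSTs, and with compound 6 they were -0.01, -0.04 and -0.28. These are descriptions of lists and were not tested as lists. Cell type markers also moved with compound 5. The 9 hepatocyte markers summed to 41353 and 39541 CPM in the DMSO samples, 30902 and 31010.1 in those of compound 4, 33040.0 and 32866 in those of compound 5, and 37853 and 31481 in those of compound 6. APOA1, AFP and TF were lower with compound 5 and none of the 9 was higher, whereas with compound 4 the same 3 were lower and TTR was higher, and with compound 6 APOA1 and TF were lower. Of the cholangiocyte markers, KRT19 was higher with each compound, and that list summed to 242 and 219 CPM in the DMSO samples against 285 and 267 in those of compound 5. Of the immune and the fibroblast and stellate markers, LYZ and ACTA2 were lower with compound 5, PDGFRB was higher with compound 4, and CD14 was higher with compounds 4 and 6. Of these marker calls, AFP and ACTA2 with compound 5 held under all 16 alternatives, the others were each lost without at least 1 library, and those of APOA1, TF and CD14 with compound 6 were lost when the replicate number entered as a block (edgeR adjusted p = 0.0576, 0.0547 and 0.0568). The part of these shifts in the values of the conjugation genes was not tested.

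**Figure D2:**
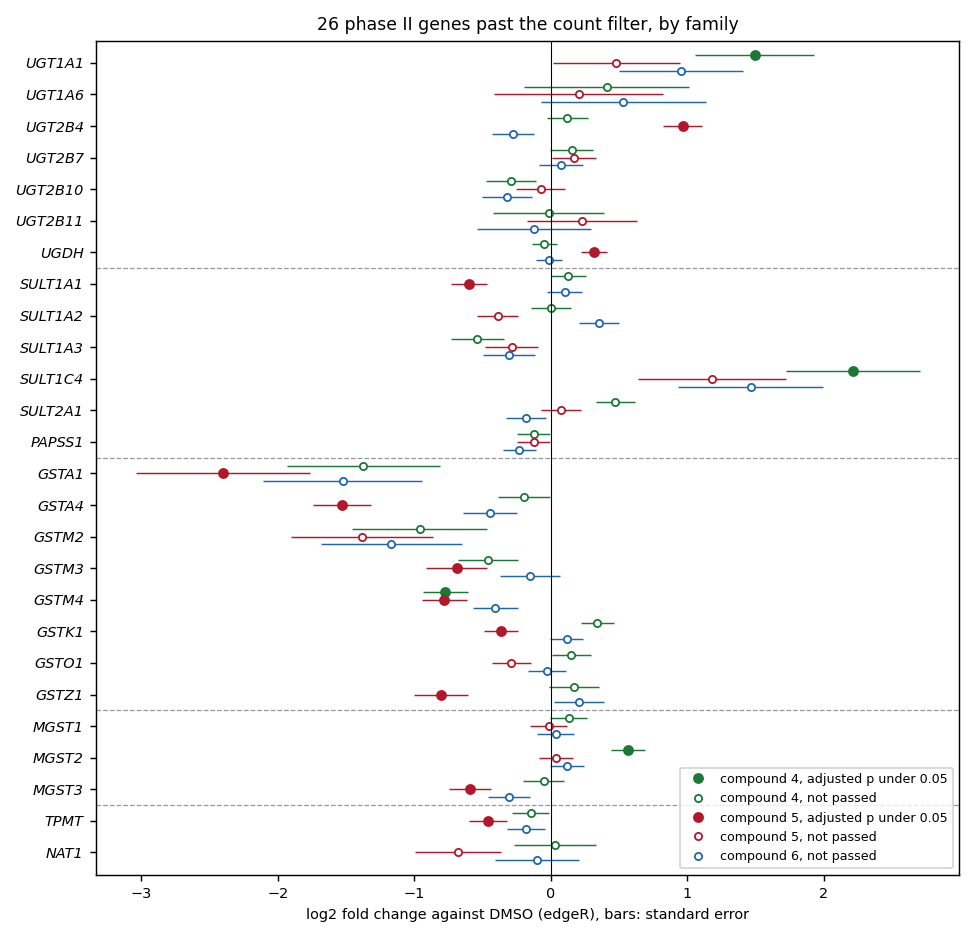
Log2 fold change against DMSO for the 26 tested genes (rows, grouped by family between dashed lines) with compound 4, 5 and 6, points with standard error bars from edgeR, filled where the adjusted p was under 0.05. With compound 5 all 8 soluble GSTs from GSTA1 to GSTZ1 lie left of 0, 6 of them filled, and no point of compound 6 is filled.

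Against DMSO, UGT2B4 and UGDH were higher with compound 5 and UGT1A1 with compound 4, and no tested glucuronidation gene passed with compound 6. UGT2B4, which conjugates bile acids and some steroids and phenols (ENSG00000156096, chr4:69480165-69526014, minus strand), was measured at 12.5 and 11.4 CPM in the DMSO samples, 12.0 and 14.0 in those of compound 4, 22.2 and 24.5 in those of compound 5, and 9.49 and 10.2 in those of compound 6. Both compound 5 samples lay above the 6 other samples. The level was 1.95-fold that of DMSO with compound 5 (log2 fold change 0.97 ± 0.14, edgeR adjusted p = 0.00106), and this call held under all 17 alternative settings run. With compound 4 the log2 fold change was 0.12, edgeR adjusted p = 0.654, and with compound 6 it was -0.28, edgeR adjusted p = 0.359.

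UGDH, the enzyme that supplies UDP-glucuronate (ENSG00000109814, chr4:39498755-39528311, minus strand), was measured at 592 and 637 CPM in the DMSO samples, 589 and 601 in those of compound 4, 774 and 756 in those of compound 5, and 613 and 606 in those of compound 6. The compound 5 samples again lay above all others, and the DMSO samples overlapped in range with those of compounds 4 and 6. UGDH rose 1.24-fold with compound 5 (log2 fold change 0.32 ± 0.09, edgeR adjusted p = 0.0288), but did not pass under upper-quartile or library-size scaling, where its log2 fold change was as low as 0.21, nor without any 1 of the DMSO or compound 5 libraries. Of the summed per-length level of the set, UGDH held 17.6% and 20.8% in DMSO and 25.8% and 25.6% with compound 5.

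UGT1A1, the enzyme that conjugates bilirubin (ENSG00000241635, chr2:233760248-233773299, plus strand), was measured at 3.05 and 0.904 CPM in the DMSO samples, 5.81 and 5.07 in those of compound 4, 3.30 and 2.12 in those of compound 5, and 3.96 and 3.54 in those of compound 6. The compound 4 samples lay above all others, and the DMSO samples were the furthest apart of the 4 groups, with 31 and 11 counts. UGT1A1 rose 2.82-fold with compound 4 (log2 fold change 1.49 ± 0.43, edgeR adjusted p = 0.0487). Its log2 fold change was 2.57 without DMSO replicate 1 and 0.83 without DMSO replicate 2, and the call was lost under 11 of 16 alternatives, DESeq2 among them. For compounds 5 and 6 the log2 fold changes were 0.48, edgeR adjusted p = 0.466, and 0.96, edgeR adjusted p = 0.273.

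Summed over the 9 UGT1A genes, which does not depend on how reads of exons 2 to 5 were divided, the locus was at 5.22 and 2.96 CPM in the DMSO samples, 8.21 and 8.89 in those of compound 4, 6.23 and 3.53 in those of compound 5, and 5.42 and 6.59 in those of compound 6. The compound 4 samples were again the highest. The sum rose with compound 4 (log2 fold change 1.08 ± 0.31, edgeR adjusted p = 0.0454), and with the other compounds its log2 fold changes were 0.26 ± 0.33, edgeR adjusted p = 0.583 for compound 5 and 0.58 ± 0.32, edgeR adjusted p = 0.353 for compound 6. The call of the sum with compound 4 was lost under 8 of 16 alternatives, namely DESeq2, library-size scaling and leaving out any 1 library of DMSO, compound 4 or compound 6. Within the sum, UGT1A6, which conjugates small planar phenols, was given between 10 and 33 counts in a sample, with log2 fold changes of 0.41, 0.21 and 0.53 for compounds 4, 5 and 6 that did not pass. UGT1A3, which is outside the 36 genes, had 0 and 4 counts in DMSO and 18 and 12 counts with compound 4, and UGT1A9 had 4 and 6 counts in DMSO and 0 in each sample of compounds 4 and 6.

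The other UGT2B genes did not pass in any comparison with DMSO. UGT2B7, which conjugates opioids, steroids and fatty acids, lay between 15.5 and 21.4 CPM in the 8 samples, with log2 fold changes between 0.08 and 0.17. UGT2B10 lay between 8.29 and 13.1 CPM and UGT2B11 between 1.37 and 2.38 CPM. The interval for UGT2B7 with compound 5 was -0.18 to 0.52 (95%, log2), which leaves out a change of the size seen for UGT2B4.

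Among the sulfation genes, SULT1A1, the main phenol sulfotransferase of the liver (ENSG00000196502, chr16:28605196-28623625, minus strand), was measured at 192 and 176 CPM in the DMSO samples, 186 and 216 in those of compound 4, 112 and 130.2 in those of compound 5, and 215 and 179.5 in those of compound 6. Both compound 5 samples lay below the 6 other samples. SULT1A1 fell with compound 5 to 0.66 of its DMSO level (log2 fold change -0.60 ± 0.13, edgeR adjusted p = 0.00704), and the call was lost without DMSO replicate 1 or compound 5 replicate 1. The log2 fold changes with compounds 4 and 6 were 0.13, edgeR adjusted p = 0.57, and 0.10, edgeR adjusted p = 0.716. Summed with its near copy SULT1A2, the log2 fold change with compound 5 was -0.58 ± 0.13, edgeR adjusted p = 0.00753, a call lost without the same libraries. SULT1A2 alone lay between 14.2 and 26.5 CPM and did not pass against DMSO with compound 5 (-0.39, edgeR adjusted p = 0.0762).

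SULT1A3, which prefers dopamine and other catecholamines, has the same coding sequence as SULT1A4. SULT1A3 lay at 143 and 142 CPM in the DMSO samples, 118 and 79.3 in those of compound 4, 116 and 118 in those of compound 5, and 137 and 94.5 in those of compound 6. The SULT1A4 row, outside the 36 genes, went from 3.68 CPM to 56.6 CPM between the compound 4 replicates, while SULT1A3 went the other way, so single values of this pair rest on the division of reads. The sum of both was 191 and 161 CPM in the DMSO samples, 121 and 136 in those of compound 4, 119.6 and 123 in those of compound 5, and 151 and 114 in those of compound 6. All treated samples were below both DMSO samples. The sum fell with compound 5 (log2 fold change -0.54 ± 0.14, edgeR adjusted p = 0.0187), and its log2 fold change was -0.45 ± 0.14, edgeR adjusted p = 0.0657 with compound 4 and -0.41 ± 0.14, edgeR adjusted p = 0.14 with compound 6. The call with compound 5 was lost without DMSO replicate 1 and without either compound 5 library.

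SULT1C4, a sulfotransferase mostly known from fetal tissues (ENSG00000198075, chr2:108377911-108388057, plus strand), was measured at 0.492 and 0.329 CPM in the DMSO samples, 1.97 and 1.87 in those of compound 4, 0.917 and 0.942 in those of compound 5, and 0.834 and 1.40 in those of compound 6. The DMSO samples, with 5 and 4 counts, were the lowest and the compound 4 samples, with 23 and 24 counts, the highest. SULT1C4 rose 4.64-fold with compound 4 (log2 fold change 2.21 ± 0.49, edgeR adjusted p = 0.0159). The call was lost without either DMSO library and by DESeq2. Its log2 fold changes of 1.18, edgeR adjusted p = 0.126 with compound 5, and 1.46, edgeR adjusted p = 0.151 with compound 6, did not pass. SULT2A1, the sulfotransferase of bile acids and DHEA, lay between 34.6 and 63.1 CPM and had its highest values with compound 4, where the log2 fold change was 0.47, edgeR adjusted p = 0.0561. PAPSS1 lay between 51.1 and 68.0 CPM, and its log2 fold changes were between -0.23 and -0.13.

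Of the soluble GSTs that fell with compound 5, GSTA4 had the lowest adjusted p and GSTA1, a rarer transcript, the largest fold change. GSTA4 conjugates 4-hydroxynonenal, a product of lipid peroxidation (ENSG00000170899, chr6:52977948-52995378, minus strand). It was measured at 11.3 and 9.45 CPM in the DMSO samples, 8.12 and 9.91 in those of compound 4, 3.12 and 4.00 in those of compound 5, and 7.92 and 7.33 in those of compound 6. Both compound 5 samples lay below all others by a wide gap. GSTA4 fell with compound 5 to 0.346 of its DMSO level (log2 fold change -1.53 ± 0.21, edgeR adjusted p = 7.17e-04), and this held under all 17 alternatives. With compounds 4 and 6 the log2 fold changes were -0.20, edgeR adjusted p = 0.553, and -0.44, edgeR adjusted p = 0.239.

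GSTM4, a mu class transferase (ENSG00000168765, chr1:109656081-109674836, plus strand), was measured at 17.7 and 15.9 CPM in the DMSO samples, 9.06 and 10.5 in those of compound 4, 8.80 and 10.7 in those of compound 5, and 13.8 and 11.6 in those of compound 6. Both DMSO samples lay above all treated samples, the compound 4 and 5 samples overlapped, and the compound 6 samples lay between them and DMSO. GSTM4 fell with compound 4 to 0.585 of DMSO (log2 fold change -0.77 ± 0.17, edgeR adjusted p = 0.014) and with compound 5 to 0.583 (log2 fold change -0.78 ± 0.17, edgeR adjusted p = 0.00676), comparisons that share the DMSO samples. With compound 6 the log2 fold change was -0.41, edgeR adjusted p = 0.197. The call with compound 4 was lost without either DMSO library or compound 4 replicate 1, and that with compound 5 without DMSO replicate 1 or compound 5 replicate 1. Summed with GSTM1, GSTM2 and GSTM5, which share sequence with it, the log2 fold changes were -0.80 ± 0.17, edgeR adjusted p = 0.012 for compound 4 and -0.84 ± 0.17, edgeR adjusted p = 0.00472 for compound 5. The call of this sum was lost without either DMSO library for compound 4 and without compound 5 replicate 1 for compound 5. GSTM2 alone lay between 0.458 and 2.55 CPM, and its log2 fold changes of -0.96, -1.39 and -1.17 with compounds 4, 5 and 6 did not pass.

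GSTM3 (ENSG00000134202, chr1:109733932-109741038, minus strand) was measured at 11.4 and 7.64 CPM in the DMSO samples, 7.18 and 6.63 in those of compound 4, 5.68 and 6.04 in those of compound 5, and 9.49 and 7.66 in those of compound 6. The compound 5 samples were the lowest, and the DMSO samples were far apart. GSTM3 fell with compound 5 (log2 fold change -0.69 ± 0.22, edgeR adjusted p = 0.042), and without DMSO replicate 1 the log2 fold change was -0.38 and the call was lost. The call was also lost by DESeq2 and without any 1 library of compound 5 or 6. GSTZ1, which takes part in the breakdown of tyrosine (ENSG00000100577, chr14:77320884-77331597, plus strand), was measured at 6.89 and 6.58 CPM in the DMSO samples, 7.10 and 8.03 in those of compound 4, 3.76 and 3.93 in those of compound 5, and 7.92 and 7.66 in those of compound 6. The compound 5 samples lay below all others, and the other 3 groups lay close together. GSTZ1 fell with compound 5 to 0.572 of DMSO (log2 fold change -0.81 ± 0.20, edgeR adjusted p = 0.0123), with no call by DESeq2 or without any 1 library of either group.

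GSTK1, the kappa class enzyme of mitochondria and peroxisomes (ENSG00000197448, chr7:143244093-143270854, plus strand), was measured at 55.7 and 50.5 CPM in the DMSO samples, 60.97 and 73.3 in those of compound 4, 39.3 and 43.2 in those of compound 5, and 56.5 and 58.5 in those of compound 6. The compound 5 samples were below and the compound 4 samples above all others. GSTK1 fell with compound 5 (log2 fold change -0.36 ± 0.12, edgeR adjusted p = 0.0497), a call lost under 10 of 17 alternatives. These were DESeq2, RLE scaling, no filter, the replicate number as a block (edgeR adjusted p = 0.0534) and leaving out any 1 library of DMSO, compound 5 or compound 6. Its log2 fold change with compound 4 was 0.34, edgeR adjusted p = 0.0964. GSTO1, of the omega class, lay between 121 and 179 CPM and did not pass, with -0.29, edgeR adjusted p = 0.149 for compound 5.

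GSTA1, the leading alpha class transferase of normal liver (ENSG00000243955, chr6:52791664-52803910, minus strand), was rare in these cells, at 1.28 and 1.89 CPM in the DMSO samples, 0.513 and 0.702 in those of compound 4, 0.0917 and 0.471 in those of compound 5, and 0.417 and 0.659 in those of compound 6. Both DMSO samples, with 13 and 23 counts, lay above all treated samples, and the compound 5 samples had 1 and 6 counts. The treated samples had between 1 and 9 counts, so GSTA1 passed the count filter only through the DMSO samples, where it was highest. GSTA1 fell with compound 5 (log2 fold change -2.40 ± 0.64, edgeR adjusted p = 0.0182), a value that ranged from -1.71 without compound 5 replicate 1 to -3.97 without compound 5 replicate 2. The call was lost without compound 5 replicate 1, without DMSO replicate 2 and by DESeq2. With compounds 4 and 6 the log2 fold changes were -1.37, edgeR adjusted p = 0.143, and -1.52, edgeR adjusted p = 0.171. Since GSTA1 and GSTA2 can only be told apart at few positions, coding bases 294 to 383 of both are printed from GENCODE 29, with the 8 bases that differ in capitals.
GSTA1: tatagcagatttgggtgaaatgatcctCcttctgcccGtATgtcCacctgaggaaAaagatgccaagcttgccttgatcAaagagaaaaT
GSTA2: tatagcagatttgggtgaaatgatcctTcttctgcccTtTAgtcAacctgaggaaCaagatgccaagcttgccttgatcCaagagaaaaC
The lower-case stretches between the capitals are the same in both lines and cannot assign a read to either gene. Summed over both genes the counts were 17 and 35 in DMSO and 8 and 8 with compound 5, and the log2 fold change was -1.74 ± 0.45, edgeR adjusted p = 0.0152, a call lost by DESeq2 and without DMSO replicate 2 or either compound 5 library.

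The microsomal transferases are small membrane proteins, some of which also act on leukotrienes and lipid hydroperoxides. MGST2 (ENSG00000085871, chr4:139665768-139740745, plus strand) was measured at 83.0 and 77.8 CPM in the DMSO samples, 106 and 132 in those of compound 4, 87.3 and 78.1 in those of compound 5, and 89.1 and 85.3 in those of compound 6. The compound 4 samples lay above all others. MGST2 rose 1.48-fold with compound 4 (log2 fold change 0.57 ± 0.12, edgeR adjusted p = 0.0146), with no call without either DMSO library, and its log2 fold changes with compounds 5 and 6 were 0.04, edgeR adjusted p = 0.831, and 0.12, edgeR adjusted p = 0.652. MGST3 (ENSG00000143198, chr1:165630861-165661796, plus strand) was measured at 21.8 and 20.4 CPM in the DMSO samples, 17.7 and 22.9 in those of compound 4, 14.3 and 13.7 in those of compound 5, and 18.0 and 16.1 in those of compound 6. Both compound 5 samples lay below all others. MGST3 fell with compound 5 (log2 fold change -0.59 ± 0.16, edgeR adjusted p = 0.0172), with no call by DESeq2 or without any 1 library of either group. MGST1, the highest of the 3, lay between 157 and 210.0 CPM, and its 95% interval with compound 5 was -0.32 to 0.29 (log2).

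TPMT, which methylates thiopurine drugs (ENSG00000137364, chr6:18128311-18155074, minus strand), was measured at 25.9 and 24.9 CPM in the DMSO samples, 21.7 and 24.1 in those of compound 4, 19.5 and 17.4 in those of compound 5, and 24.4 and 20.5 in those of compound 6. The compound 5 samples lay below all others. TPMT fell with compound 5 (log2 fold change -0.46 ± 0.14, edgeR adjusted p = 0.0319), again with no call by DESeq2 or without any 1 library of either group. NAT1, which acetylates aromatic amines, lay between 1.74 and 3.35 CPM, with log2 fold changes of -0.68, edgeR adjusted p = 0.129 with compound 5, and 0.03 and -0.10 with compounds 4 and 6.

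**Figure D3:**
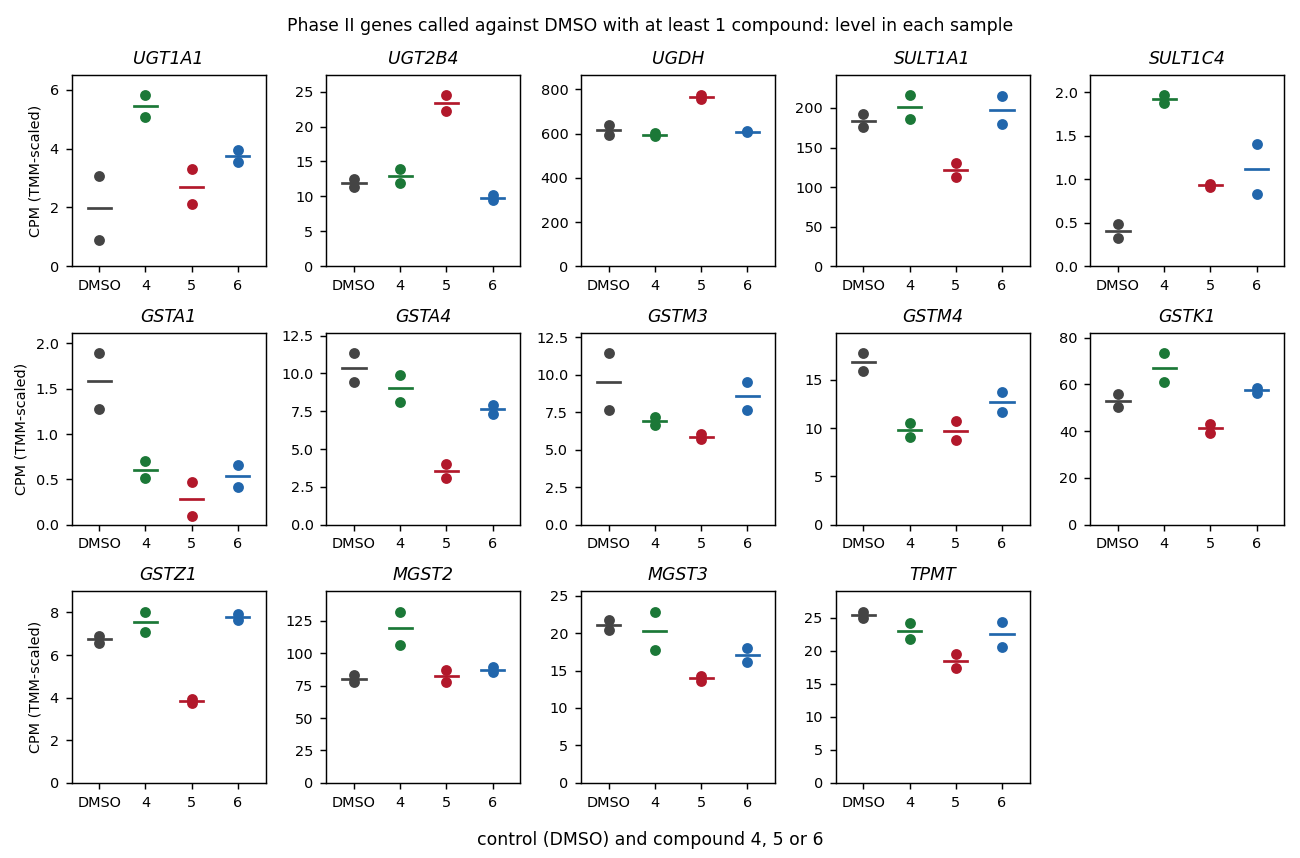
TMM-scaled CPM (y axes from 0) in each sample for the 14 genes that passed against DMSO with at least 1 compound, points for the 2 samples and a line for the mean of DMSO and of compounds 4, 5 and 6. UGT2B4 at 22.2 and 24.5 CPM and GSTA4 at 3.12 and 4.00 CPM set the compound 5 samples apart, and UGT1A1, SULT1C4 and MGST2 are highest with compound 4.

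The compounds were also compared with each other in 3 pairs, with p-values adjusted over all tested genes within each pair. Compounds 4 and 6 carry a tert-butyl and a cyclohexyl group, respectively, beside the hydroxyl, and compound 5 carries a further tert-butyl group in place of the methyl group and a different bridge. They were given for the same time at their own IC50, so concentrations differed. Between compounds 5 and 4, 8 of 26 genes passed by edgeR, against 13.9% of all tested genes (6.91% higher and 7.04% lower with compound 5). UGT2B4 (0.85 ± 0.14, edgeR adjusted p = 0.008) and UGDH (0.36, edgeR adjusted p = 0.0321) were higher with compound 5 on the log2 scale. Lower with compound 5 were GSTA4 (-1.33 ± 0.21, edgeR adjusted p = 0.00676), GSTZ1 (-0.98), SULT1A1 (-0.73), GSTK1 (-0.70), MGST3 (-0.54) and MGST2 (-0.53). For MGST3 the edgeR adjusted p was 0.0437, and it was 0.0554 when the replicate number entered as a block. Leaving out 1 library changed the count, which was lowest without either compound 5 library. The share of all tested genes was lowest in those fits too.

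Between compounds 5 and 6, 6 of 26 genes passed, against 9.91% of all tested genes (4.76% higher and 5.16% lower). UGT2B4 was 2.37-fold higher with compound 5 (log2 fold change 1.24 ± 0.15, edgeR adjusted p = 0.00183), under all 17 alternatives. GSTA4 (-1.09), GSTZ1 (-1.02), SULT1A2 (-0.74), SULT1A1 (-0.70) and GSTK1 (-0.48) were lower with compound 5 on the log2 scale, with edgeR adjusted p between 0.0105 and 0.0365. The count fell without either compound 5 library and without compound 6 replicate 1. The share of all tested genes was lowest in those fits too. GSTM4 had a log2 difference of -0.37, edgeR adjusted p = 0.189 between these compounds and of -0.01 (95% interval -0.39 to 0.38) between compounds 5 and 4.

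Between compounds 6 and 4, which differ in the ring substituent, 0 of 26 genes passed by edgeR, against 0.0448% of all tested genes (0.0224% in each direction), while 4 had an unadjusted p under 0.05 and DESeq2 called SULT2A1. The lowest unadjusted p-values were those of SULT2A1 (-0.65, 95% interval -0.97 to -0.33, edgeR adjusted p = 0.203) and MGST2 (-0.45, 95% interval -0.72 to -0.18, edgeR adjusted p = 0.314), both lower with compound 6 on the log2 scale. For UGDH the interval was -0.17 to 0.24, for GSTA4 -0.68 to 0.19, for UGT2B4 -0.73 to -0.06 and for SULT1C4 -1.67 to 0.17. The interval of UGDH was the narrowest of these, and that of the rare SULT1C4 the widest.

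Other genes of the conjugation pathway were read from a list of 96, of which 64 were tested and GSTT1 had no row. Against DMSO, 16 passed with compound 4 (11 of them higher), 29 with compound 5 (17 of them higher) and 9 with compound 6 (all 9 higher), beside the shares of all tested genes given above. Without DMSO replicate 1 and 2 the count was 6 and 3 for compound 4, then 20 and 23 for compound 5, and it was 2 and 0 for compound 6, for which it was also 2 without compound 6 replicate 2. Under each of the 16 alternatives run for single genes of this list, 3 of the 16, 18 of the 29 and 0 of the 9 calls held. With compound 4 the 3 were ABCC2, ABCC3 and CYP1A1. With compound 5, 14.2% of all tested genes were lower, and the 10 other transferases tested had 6 lower and 0 higher. These include SULT1A4, whose value rests on the division of reads with SULT1A3. Without it 5 of 9 were lower, among them AS3MT, which methylates arsenic (-1.17, edgeR adjusted p = 0.00102), and UGT2A3 (-0.73, edgeR adjusted p = 0.00123). With compound 4, 3 were lower and 1 higher, and with compound 6 none passed.

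Of the 9 tested genes of glutathione supply, 4 were higher with compound 4, 5 with compound 5 and 4 with compound 6, and 2 were lower with compound 5. Of all tested genes, 6.5%, 13.9% and 2.8% were higher with compounds 4, 5 and 6, and 14.2% were lower with compound 5. GCLC, the catalytic subunit of the rate-limiting step of glutathione synthesis, was measured at 159 and 151 CPM in the DMSO samples, 251 and 225 in those of compound 4, 419 and 434 in those of compound 5, and 210.1 and 267 in those of compound 6. All treated samples lay above both DMSO samples. GCLC rose with compound 5 (log2 fold change 1.46 ± 0.13, edgeR adjusted p = 9.29e-05). SLC7A11, the cystine importer, rose by 1.06, 2.27 and 1.66 (log2) with compounds 4, 5 and 6 (edgeR adjusted p = 0.016, 2.00e-04 and 0.00642), and so did TXNRD1, thioredoxin reductase (0.75, 1.48 and 0.76). These comparisons share the DMSO samples. The calls of these 3 genes with compound 5 held under all 16 alternatives, whereas those with compounds 4 and 6 were lost without either DMSO library, and those with compound 6 also without compound 6 replicate 2. The call of SLC7A11 with compound 4 was lost without compound 4 replicate 1 too.

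Of the 6 pumps that export conjugates, 3 were higher with each compound, beside 6.5%, 13.9% and 2.8% of all tested genes with compounds 4, 5 and 6. These were ABCC1 and ABCC2 with all of them, ABCC3 with compounds 4 and 6 and ABCC4 with compound 5. With compound 6 the count was 1 (ABCC3) without DMSO replicate 1 or compound 6 replicate 2 and 0 without DMSO replicate 2, and ABCC1 was lost when the replicate number entered as a block (edgeR adjusted p = 0.0518). ABCC2 (MRP2), the canalicular pump for glucuronides and glutathione conjugates, rose by 0.78, 1.19 and 0.81 (log2) with compounds 4, 5 and 6 (edgeR adjusted p = 0.00352, 2.03e-04 and 0.00879, in that order). The calls of ABCC2 with compounds 4 and 5 held under all 16 alternatives, and that with compound 6 was lost without either DMSO library or compound 6 replicate 2. ABCC3 was measured at 70.3 and 67.1 CPM in the DMSO samples, 163 and 167 in those of compound 4, 83.9 and 86.5 in those of compound 5, and 139.7 and 184 in those of compound 6. Its compound 4 and 6 samples lay above all others. ABCC3 rose with compounds 4 (1.27, edgeR adjusted p = 4.42e-04) and 6 (1.24, edgeR adjusted p = 0.00425), and its log2 fold change with compound 5 was 0.31, edgeR adjusted p = 0.0987. The call with compound 6 was lost without DMSO replicate 2. Of the 6 genes that supply or remove UDP-glucuronate beside UGDH, none was higher. With compound 4, 1 was lower and with compound 5, 2, beside 5.42% and 14.2% of all tested genes. UGP2, which makes UDP-glucose, was lower with compounds 4 (-0.48, edgeR adjusted p = 0.0104) and 5 (-0.51, edgeR adjusted p = 0.00399), the former lost without either DMSO library. PGM1 was lower with compound 5 (-0.43, edgeR adjusted p = 0.0125), a call lost without DMSO replicate 1 or either compound 5 library.

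Among the 10 tested sensors and liver factors, AHR rose by 0.61, 0.98 and 0.70 (log2) with compounds 4, 5 and 6 (edgeR adjusted p = 0.00681, 2.99e-04 and 0.0101). Without either DMSO library only the call with compound 5 remained, and that with compound 6 was also lost without compound 6 replicate 2. NFE2L2, the NRF2 gene, rose with compound 5 (0.73, edgeR adjusted p = 8.08e-04), and NR1H4, the bile acid receptor FXR, fell with compound 4 (-0.91, edgeR adjusted p = 0.00508), a call lost without DMSO replicate 2. NR1I2, the PXR gene, had log2 fold changes of 0.04, -0.10 and 0.12 that did not pass. CYP1A1, a phase I enzyme known as a target of AHR, was measured at 4.13 and 3.21 CPM in the DMSO samples, 69.2 and 62.1 in those of compound 4, 11.5 and 7.46 in those of compound 5, and 16.5 and 29.5 in those of compound 6. All treated samples lay above DMSO, highest with compound 4. The log2 fold changes of CYP1A1 were 4.17, edgeR adjusted p = 2.13e-04 with compound 4, 1.36, edgeR adjusted p = 0.0123 with compound 5, and 2.67, edgeR adjusted p = 0.00425 with compound 6. Without DMSO replicate 2 the calls of CYP1A1 with compounds 5 and 6 were lost, and that with compound 5 also without compound 5 replicate 1. Of the 6 tested phase I partners, 2, 4 and 1 were higher with compounds 4, 5 and 6, and 0 were lower. CYP3A4, the gene these cells overexpress, rose with compound 5 (0.97, edgeR adjusted p = 7.24e-04), a call that held under all 16 alternatives. Whether these reads came from the construct was not tested. The sulfate and the methyl donor lists had 1 higher and 0 lower, and 0 higher and 2 lower, with compound 5, and none passed with compounds 4 or 6.

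**Figure D4:**
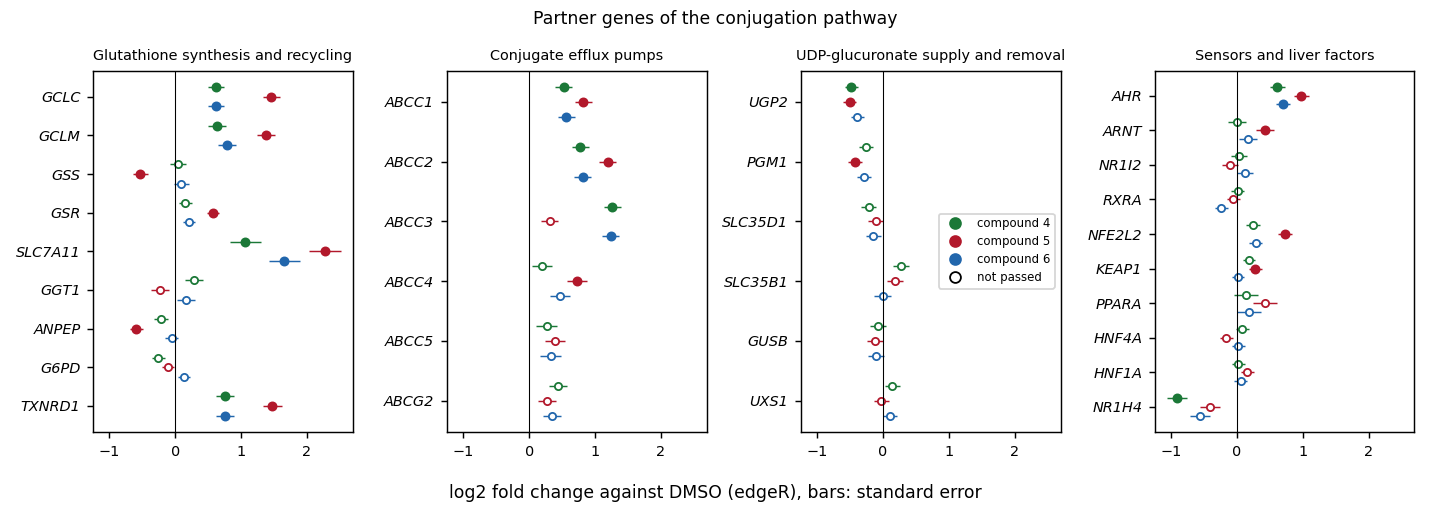
Log2 fold change against DMSO with standard error bars (edgeR) for the tested genes of 4 partner lists with compounds 4, 5 and 6, filled where the adjusted p was under 0.05 and open where it was not. GCLC, GCLM, SLC7A11 and TXNRD1 lie right of 0 with each compound, and UGP2 left of it.

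RefSeq promoters (GRCh38.p14, from 250 bases before to 50 bases after a gene's start) were found for 29 of the 36 genes. The absent entries were UGT2B4, SULT1A1, SULT1A2, PAPSS2, MGST2, NAT1 and NAT2. A core of the antioxidant response element that NRF2 binds, TGACNNNGC on either strand, occurred in 8 of the 33 promoters of these genes and in 13.3% of all 35116 promoters. The core of the xenobiotic response element that AHR binds, GCGTG on either strand, occurred in 10 of the 33 and in 36.5% of all promoters. A match is a description of letters and not a binding site. The promoters are printed for GSTA4, the gene of the set with the lowest adjusted p with compound 5, and GSTM4, which fell with compounds 4 and 5, each on the strand of its gene with a match to 1 of the cores in capitals (the antioxidant core in GSTA4 at chr6:52995235-52995534, minus strand, and the reverse complement of the xenobiotic core in GSTM4 at chr1:109655849-109656148, plus strand).
GSTA4: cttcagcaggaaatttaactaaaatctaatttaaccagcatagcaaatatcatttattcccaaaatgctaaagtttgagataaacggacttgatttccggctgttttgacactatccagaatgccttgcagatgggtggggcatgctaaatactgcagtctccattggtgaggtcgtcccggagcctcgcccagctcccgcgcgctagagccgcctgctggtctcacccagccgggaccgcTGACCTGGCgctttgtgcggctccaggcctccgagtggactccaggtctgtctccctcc
GSTM4: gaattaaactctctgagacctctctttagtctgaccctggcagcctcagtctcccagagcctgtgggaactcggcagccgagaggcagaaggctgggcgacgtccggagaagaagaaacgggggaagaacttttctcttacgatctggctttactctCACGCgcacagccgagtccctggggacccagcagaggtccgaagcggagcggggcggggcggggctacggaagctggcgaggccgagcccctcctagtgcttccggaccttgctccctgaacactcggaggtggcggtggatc
GSTA4 and GSTM4 did not hold a match to the same core, and UGT1A1 and SULT1C4, which rose with compound 4, held a match to neither in this window, which says only that these letters are not in it.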

How the data were processed

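Estimated counts per gene were deposited for 8 samples. Per the labels and the study's methods, the authors checked reads with FastQC 0.12.0, quantified them with Salmon 1.5.0 on the GENCODE transcriptome (GRCh38), which divides reads shared between transcripts by estimation, and summed them to genes with tximeta. The deposited estimated counts are whole numbers per Ensembl gene, not scaled for library size. The authors' own tests used DESeq2 1.38.3, and their results were not used.

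Ensembl identifiers were given names by a symbol table, while coordinates, transcript lengths and shared stretches of 31 bases were taken from GENCODE 29, which is not the release the authors used. Counts were tested in R 4.3.3 with edgeR 4.0.16 (TMM, filterByExpr, quasi-likelihood F-test), with all 8 samples in a single fit on the 4 groups. A standard error is the fold change divided by the square root of its F statistic. Genes passed at a Benjamini-Hochberg adjusted p under 0.05 over all 13404 tested genes. Calls were made for each compound against DMSO and for the compounds against each other. With 2 samples a group no exact permutation can reach 0.05, so none was run.

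The alternatives were DESeq2 1.42.0, RLE, upper-quartile and library-size scaling, no filter (at least 1 count in total), a mean of at least 1 CPM, the replicate number as a block, only the groups compared, an adjusted p under 0.01, summed families and leaving out each library. The procedure was tested on simulated data. Between replicates the chi-square per degree of freedom was from 5.51 to 17.2, above counting noise, and no pair was treated as a duplicate. The labels give the replicate number as a day, which was taken as a pairing. Deviations of same-numbered samples from their group means correlated between -0.088 and 0.133 across 13404 genes, and the blocked value is given where it changes a call.

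The genes and lists were chosen with earlier results of these data known. Every listed gene is accounted for, genes called against DMSO are given in every sample, and of each other list at most 3 called genes with the largest change per compound were named, beside NR1I2, KEAP1 and values set beside them, which were chosen after seeing the data. Promoters are from RefSeq (GRCh38.p14).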

Additional observations from a re-analysis of the deposited data

How the results depend on the processing

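None of the called genes, among the 36, the other listed genes and the markers, changed direction under the alternatives run for single genes. The last 2 kinds were rerun as an addition chosen after seeing the data, against DMSO only. The count of genes called with compound 4 against DMSO (4) was 0 at an adjusted p under 0.01 and between 0 and 5 when 1 library was left out. With compound 5 (11) it was 5 by DESeq2, 4 at an adjusted p under 0.01 and between 2 and 11 with 1 library left out. With compound 6 (0) it was 1 with no filter, UGT1A1, and 0 with any library left out. Between compounds 5 and 4 (8) it was 5 with only the groups compared, 4 at an adjusted p under 0.01 and between 1 and 12 with 1 library left out. Between compounds 6 and 4 (0) it was 1 by DESeq2 and 1 with no filter, SULT2A1 in both, and between 0 and 1 with 1 library left out. Between compounds 5 and 6 (6) it was 1 at an adjusted p under 0.01 and between 1 and 7 with 1 library left out. Of the 5 summed families, 2 passed with compound 4 (between 0 and 2 with 1 library left out), 4 with compound 5 (between 0 and 4), and 0 with compound 6 (1 with no filter, and between 0 and 1 with 1 library left out). The share of all tested genes called also changed with these settings, so a lower count here is not a result about these genes alone. A group left with 1 sample was assumed to vary like the others. The cause of these changes was not tested.

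When the replicate number entered as a block (replicate block), the counts against DMSO were 4, 10 and 0 for compounds 4, 5 and 6, and 7 between compounds 5 and 4, 0 between compounds 6 and 4, and 6 between compounds 5 and 6. Among the 36 genes, GSTK1 lost its call with compound 5 against DMSO under the block. MGST3 lost only its call between compounds 5 and 4, and no other call of these genes was lost. Of the other listed genes, those of KEAP1 with compound 5 and ABCC1 with compound 6 were lost (edgeR adjusted p = 0.0557 and 0.0518), and of the markers those of APOA1, TF and CD14 with compound 6.

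Genes under the filter were compared only with no filter and within the summed families, and the lowest of those called (GSTA1, UGT1A1 and SULT1C4) rested on few counts in 2 samples a group. Over all calls of the 36 genes in all comparisons, 228 values kept their side of the threshold and 24 lost it under the alternatives other than leaving out a library and the adjusted p under 0.01, and 147 kept and 85 lost it when 1 library was left out.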
